A study of Mus musculus with 31 samples.

Results

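The Arp2/3 complex nucleates branched actin filaments, and beta-actin is the main cytoplasmic actin of most cells. The 10 genes described here are Actb, which encodes beta-actin, and 9 genes for Arp2/3 subunits: Actr2, Actr3, Arpc1a, Arpc1b, Arpc2, Arpc3, Arpc4, Arpc5 and Arpc5l. They are 10 of the 29120 gene identifiers in the count data. They were chosen by the spleen fold changes of Actb and Arpc4, which had differed between Gpr34-/- and wild-type mice in an earlier analysis of the same counts, so the spleen values below are a description without a test. Each symbol matched 1 Ensembl identifier, all 10 genes passed the filter on low counts in both tissues, and the lowest count of any of them in any library was 1421, for Arpc5l.

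RNA sequencing was done on 31 libraries from C57BL/6 mice. The groups were LPS-treated bone-marrow-derived dendritic cells labelled Gpr34-/- (n = 3), naive cells labelled Gpr34-/- (n = 3), LPS-treated wildtype cells (n = 3), naive wildtype cells (n = 3), Gpr34-/- spleens (n = 9) and wildtype spleens (n = 10). Gpr34 encodes a receptor for lysophosphatidylserine, and the labels do not describe the allele. Marrow came from male mice of 8 to 16 weeks and was grown for 10 days with a GM-CSF-containing supernatant, and the LPS groups received bacterial lipopolysaccharide, which activates Toll-like receptor 4, for 8 h on day 11. The spleens are labelled naive and came from mice of 12 weeks, whose sex is not stated. Nothing in the labels says that the libraries of a group came from separate animals or cultures, and p-values then cover only the scatter among libraries.

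Actin is held in cells as monomers and as filaments. In the Arp2/3 complex the 2 actin-related proteins Arp2 (Actr2) and Arp3 (Actr3) stand in for the first monomers of a new filament, the ARPC2 and ARPC4 subunits form the core that clamps the mother filament, and ARPC1, ARPC3 and ARPC5 complete the assembly. ARPC1 and ARPC5 each exist as isoforms from separate genes, Arpc1a or Arpc1b and Arpc5 or Arpc5l, of which ARPC1B is the main ARPC1 of blood cells. Dendritic cells use branched actin for uptake of antigen by macropinocytosis and phagocytosis, for protrusions and for migration.

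Total counts ran from 38998746 to 74164853 in the dendritic cell libraries and from 56834377 to 133277070 in the spleens. Values are CPM, counts scaled to a common library size, with TMM composition factors computed separately for each tissue, unless stated otherwise. Gpr34 went against part of the labels: replicates 2, 3 and 4 of the cells labelled knockout had 0, 117 and 104 counts after LPS, against 125, 65 and 65 in LPS-treated wild-type cells. Naive replicates 2, 3 and 4 of the cells labelled knockout had 0, 120 and 4, against 324, 199 and 226 in naive wild-type cells. The cultures are therefore called labelled knockout throughout. In spleens, Gpr34 was at 0.398 to 1.66 CPM in knockouts and 4.13 to 9.02 CPM in wild types, without overlap. Summed over 12 dendritic cell markers, the cultures held 11830 to 21290 CPM, against 0.529 to 5.55 CPM for 8 B cell markers and 754.4 to 2159 CPM for 10 macrophage and monocyte markers. Most of the dendritic cell sum in the cultures was Cd74, with group means of 8779 to 11770 CPM, so the gap between these sums is no measure of purity. The dendritic cell sum was 10670 to 24260 CPM in knockout spleens and 10540 to 16020 CPM in wild-type spleens, most of it Cd74. Flt3, Xcr1 and Cd209a of that list had lower group means in the cultures than in spleens, and Cd209a was at 0 in LPS-treated wild-type cells.

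Of the 10 genes, 8 had a promoter entry in the RefSeq table for GRCm38.p6, which covers 250 bases before to 50 bases after the start. Actb and Arpc5l had none. The sequences of 3 of them are shown because the results differ most clearly among them: Arpc5 rose most of the subunit genes after LPS in wild-type cells, Arpc4 had the largest spleen difference of them, and Arpc1b did not pass the test after LPS. Each is given 5′ to 3′ on the plus strand, and capitals mark matches on either strand to the GC box GGGCGG, to CCAAT and to the CArG box, the site of serum response factor.
Arpc5, chr1:152766292-152766591: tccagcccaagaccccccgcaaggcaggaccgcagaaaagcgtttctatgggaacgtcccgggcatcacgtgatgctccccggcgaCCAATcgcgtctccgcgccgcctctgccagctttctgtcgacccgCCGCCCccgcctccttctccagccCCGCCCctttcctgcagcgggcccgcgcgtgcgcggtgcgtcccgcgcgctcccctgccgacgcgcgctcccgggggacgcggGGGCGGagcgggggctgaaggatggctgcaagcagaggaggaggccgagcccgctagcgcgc
Arpc4, chr6:113377863-113378162: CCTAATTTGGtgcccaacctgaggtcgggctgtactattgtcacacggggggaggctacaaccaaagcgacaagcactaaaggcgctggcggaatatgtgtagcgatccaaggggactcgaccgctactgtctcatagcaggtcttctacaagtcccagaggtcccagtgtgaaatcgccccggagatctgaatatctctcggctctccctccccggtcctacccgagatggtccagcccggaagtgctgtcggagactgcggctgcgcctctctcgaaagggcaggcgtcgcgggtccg
Arpc1b, chr5:145114006-145114305: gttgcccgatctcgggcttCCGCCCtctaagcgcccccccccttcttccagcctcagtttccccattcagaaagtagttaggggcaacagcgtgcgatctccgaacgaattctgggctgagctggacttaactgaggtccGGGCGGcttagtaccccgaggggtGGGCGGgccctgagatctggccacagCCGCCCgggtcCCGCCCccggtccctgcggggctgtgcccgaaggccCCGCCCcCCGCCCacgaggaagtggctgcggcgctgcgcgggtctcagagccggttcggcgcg
The Arpc5 window holds 3 GC boxes and 1 CCAAT, the Arpc1b window holds 7 GC boxes, and the Arpc4 window holds 1 CArG box, at its first bases. Over the 8 genes, 6 windows had a GC box (Actr2, Actr3, Arpc1b, Arpc2, Arpc3 and Arpc5), 2 had a CCAAT (Actr2 and Arpc5) and none had TATAAA. Of 32851 promoters in the table, 35.7% had a GC box, 37.4% a CCAAT, 13.6% a TATAAA and 1.63% a CArG box. These matches describe the letters of the windows alone.

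LPS against naive cells asked which of the genes differ when dendritic cells are activated. The same 7 of the 10 genes rose in cells labelled knockout and in wild-type cells (Actb, Actr2, Actr3, Arpc2, Arpc3, Arpc4 and Arpc5), none fell, and Arpc1a, Arpc1b and Arpc5l did not pass the test (edgeR quasi-likelihood test, adjusted p under 0.05). Of 16965 genes tested, 15.3% were called higher and 13.4% lower in cells labelled knockout, and 18.1% higher and 15.8% lower in wild-type cells. The median log2 fold change over the 10 genes was 0.29 in cells labelled knockout and 0.41 in wild-type cells, where all genes had medians of -0.02 and -0.03. Marker genes moved in the same comparisons. Of 12 dendritic cell markers, 3 were called higher and 1 lower in cells labelled knockout, and 7 and 2 in wild-type cells. Of 10 macrophage and monocyte markers, 4 were higher and 2 lower in cells labelled knockout, and 5 and 1 in wild-type cells. Of 16 ribosomal protein genes, kept as a sign of RNA quality, none was called higher, 2 were called lower in cells labelled knockout and 3 in wild-type cells, and only 1 had a positive log2 fold change in either set. They summed to 4956 to 5454 CPM in cells labelled knockout after LPS, against 5449 to 6380 CPM in naive ones, and 5506 to 5794 CPM in LPS-treated wild-type cells, against 5952 to 6512 CPM in naive ones. The part of these markers in the rise of the 7 genes was not tested. In cells labelled knockout the LPS libraries lay wholly above the naive ones for those 7 genes, against 21.3% of all genes, and wholly below them for 2, Arpc1a and Arpc5l, against 20.4%. Among wild-type cells they lay wholly above for the 7, against 25.6%, and wholly below for 1, Arpc1b, against 25.3%. In bulk libraries, a change in the share of cells of a kind and a change in RNA per cell cannot be told apart.

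These directions hold relative to the other genes, since they depend on the scaling. TMM factors were 0.848 to 0.919 in LPS libraries and 1.10 to 1.16 in naive libraries. Without them the median of all genes was at -0.35 in cells labelled knockout and -0.44 in wild-type cells. On that scale only Actb was still called higher in cells labelled knockout, with a log2 fold change of 0.53, and only Actb and Arpc5 in wild-type cells, at 0.72 and 0.26. Arpc1a, Arpc1b and Arpc5l were called lower on that scale in both. Of all genes, 8.49% were then called higher and 29.4% lower in cells labelled knockout, and 9.43% higher and 36.1% lower in wild-type cells. Arpc3 and Arpc4 turned to small negative values in both, and Actr3 in cells labelled knockout, and none of these passed the test. The separation of LPS from naive libraries given above was also under TMM and depends on the scaling too. Each gene's distance from the median of all genes was nearly the same on both scales.

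**Figure D1:**
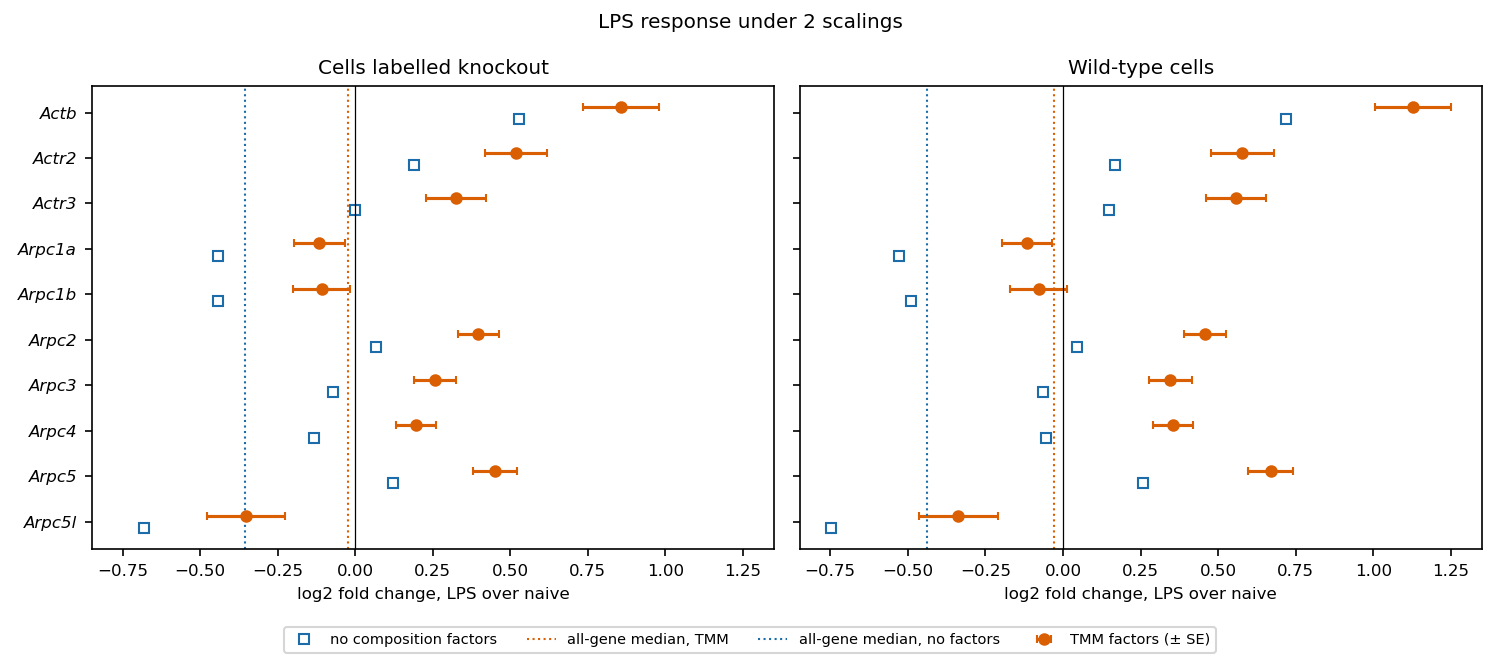
Log2 fold change of each gene, LPS over naive, in cells labelled knockout (left) and wild-type cells (right). Filled circles with bars are edgeR estimates with TMM factors ± SE, open squares are estimates without composition factors, and dotted lines are the medians of all genes on each scale; Actb lies farthest to the right and Arpc5l farthest to the left in both panels.

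Actb rose most. It had 18789, 16156 and 18392 CPM in LPS-treated cultures labelled knockout, against 8684, 11743 and 9027 CPM in naive ones. In wild-type cells it had 22632, 22637 and 19836 CPM after LPS, against 9254, 10344 and 10179 CPM in naive cells. The lowest LPS library was above the highest naive one in both sets of cells. The log2 fold change was 0.86 ± 0.12 in cells labelled knockout (SE, adjusted p = 0.000469) and 1.13 ± 0.12 in wild-type cells (adjusted p = 5.85e-05), where it was a 2.19-fold rise. Without the 3 libraries labelled knockout that had over 100 Gpr34 counts, the value in cells labelled knockout was 1.05 ± 0.10. That fit leaves 1 LPS library labelled knockout. Gapdh, often used with Actb as a loading control, had 2.26 to 8.82 CPM in the 12 cultures. It was at 49.8 to 159.7 CPM in knockout spleens and 80.4 to 118.2 CPM in wild-type spleens. Some ribosomal protein genes, picked after their values were seen, were as low in the cultures, such as Rps6, with group means of 4.89 to 6.26 CPM, against means of 560.2 CPM in knockout and 459.4 CPM in wild-type spleens. Gapdh too was called higher after LPS, by 1.06 ± 0.27 in cells labelled knockout and 1.08 ± 0.27 in wild-type cells (adjusted p = 0.014 and 0.0103). Its counts in the cultures were only 127 to 414 per library, and whether they follow its RNA level was not tested.

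The genes for both actin-related proteins rose too. Actr2 had 243.7, 251.9 and 273.3 CPM in cells labelled knockout after LPS, against 160.1, 196.6 and 180.4 CPM in naive ones, and 238.4, 244.7 and 221.7 CPM in LPS-treated wild-type cells, against 175.5, 144.8 and 151.7 CPM in naive ones. All LPS libraries were above all naive ones of the same label. The log2 fold changes of Actr2 were 0.52 ± 0.10 in cells labelled knockout (adjusted p = 0.00302) and 0.58 ± 0.10 in wild-type cells (adjusted p = 0.00122). Actr3 had 112.3, 122.1 and 117.7 CPM in cells labelled knockout after LPS, against 93.9, 98.5 and 88.7 CPM in naive ones, and 144.3, 137.8 and 116.9 CPM in LPS-treated wild-type cells, against 88.1, 84.8 and 98.2 CPM in naive ones. Its groups did not overlap either, and its log2 fold changes were 0.33 ± 0.096 in cells labelled knockout (adjusted p = 0.0266) and 0.56 ± 0.097 in wild-type cells (adjusted p = 0.00116). In cells labelled knockout the call for Actr3 was lost with only the libraries compared (adjusted p = 0.055), with the replicate block (0.0676), without naive replicate 2 or 4 (0.072 and 0.113) and without LPS replicate 3 or 4 (0.0775 and 0.0689) of these cells.

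Both core subunit genes rose. Arpc2 had 1301, 1221 and 1265 CPM in cells labelled knockout after LPS, against 992.6, 947.3 and 936.1 CPM in naive ones, and 1384, 1413 and 1274 CPM in LPS-treated wild-type cells, against 989.7, 993.6 and 983.2 CPM in naive ones. The LPS libraries were all higher, by a log2 fold change of 0.40 ± 0.067 in cells labelled knockout (adjusted p = 0.00133) and 0.46 ± 0.068 in wild-type cells (adjusted p = 0.00045). Arpc4 had 687.7, 691.0 and 715.2 CPM in cells labelled knockout after LPS, against 636.4, 588.0 and 604.2 CPM in naive ones, and 825.6, 787.9 and 772.9 CPM in LPS-treated wild-type cells, against 606.2, 631.9 and 627.5 CPM in naive ones. Its groups were again apart under TMM. Without composition factors the LPS libraries labelled knockout lay wholly below the naive ones, at 608.9 to 634.8 against 644.4 to 712.3 CPM. On that scale the wild-type groups overlapped. The log2 fold change of Arpc4 in cells labelled knockout, 0.20 ± 0.065, passed narrowly (adjusted p = 0.0429) and did not pass when any single dendritic cell library was left out (adjusted p 0.0508 to 0.142). In wild-type cells it was 0.36 ± 0.065 (adjusted p = 0.00159).

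Arpc3, whose subunit contacts Arp3, had 1020, 1036 and 1054 CPM in cells labelled knockout after LPS, against 906.6, 856.5 and 838.7 CPM in naive ones, and 1155, 1101 and 1129 CPM in LPS-treated wild-type cells, against 831.1, 927.9 and 904.7 CPM in naive ones. All LPS libraries were higher, and the log2 fold change was 0.26 ± 0.069 in cells labelled knockout (adjusted p = 0.0164) and 0.35 ± 0.069 in wild-type cells (adjusted p = 0.00271). In cells labelled knockout its call was lost with only the libraries compared (adjusted p = 0.0971) and without naive or LPS replicate 4 of these cells (0.0808 and 0.0563). Of the pair of ARPC5 genes, Arpc5 had 385.7, 389.9 and 416.6 CPM in cells labelled knockout after LPS, against 276.4, 303.6 and 292.3 CPM in naive ones, and 451.6, 464.8 and 428.1 CPM in LPS-treated wild-type cells, against 270.9, 279.8 and 294.6 CPM in naive ones. It rose by 0.45 ± 0.072 in cells labelled knockout (adjusted p = 0.000909) and by 0.67 ± 0.072 in wild-type cells (adjusted p = 5.51e-05).

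Arpc5l, the other ARPC5 gene, had 50.2, 47.2 and 45.8 CPM in cells labelled knockout after LPS, against 64.7, 60.0 and 58.0 CPM in naive ones, and 53.8, 37.0 and 43.0 CPM in LPS-treated wild-type cells, against 54.1, 61.1 and 53.8 CPM in naive ones. The LPS libraries labelled knockout lay below all naive ones, whereas LPS wild-type replicate 1 lay within the naive range. The log2 fold change was -0.35 ± 0.13 (adjusted p = 0.059) in cells labelled knockout and -0.34 ± 0.13 (adjusted p = 0.0619) in wild-type cells. Leaving out LPS wild-type replicate 1 or 2 made it pass as lower in cells labelled knockout (adjusted p = 0.0228 and 0.0332). In wild-type cells it passed as lower without LPS wild-type replicate 1, at -0.49 (adjusted p = 0.00807), and without naive labelled-knockout replicate 2 or 3 (adjusted p = 0.0455 and 0.0442).

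The ARPC1 genes were not called. Arpc1b had 629.9, 587.7 and 654.0 CPM in cells labelled knockout after LPS, against 732.2, 585.7 and 700.0 CPM in naive ones, and 687.1, 639.1 and 714.0 CPM in LPS-treated wild-type cells, against 719.3, 719.8 and 715.5 CPM in naive ones. The groups overlapped in cells labelled knockout, and in wild-type cells all LPS values lay below the naive ones. Its log2 fold change was -0.11 ± 0.091 in cells labelled knockout, with a 95% interval of -0.31 to 0.091, and -0.08 ± 0.091 in wild-type cells, with an interval of -0.28 to 0.12 (adjusted p = 0.415 and 0.555). Without naive labelled-knockout replicate 3 it passed as lower in cells labelled knockout (adjusted p = 0.041). Arpc1a had 87.9 to 101.1 CPM in cells labelled knockout after LPS, against 102.5 to 104.6 CPM in naive ones, and 88.8 to 102.7 CPM in LPS-treated wild-type cells, against 102.0 to 108.8 CPM in naive ones. Its log2 fold change was -0.12 ± 0.082 in both (adjusted p = 0.333 in cells labelled knockout and 0.314 in wild-type cells).

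**Figure D2:**
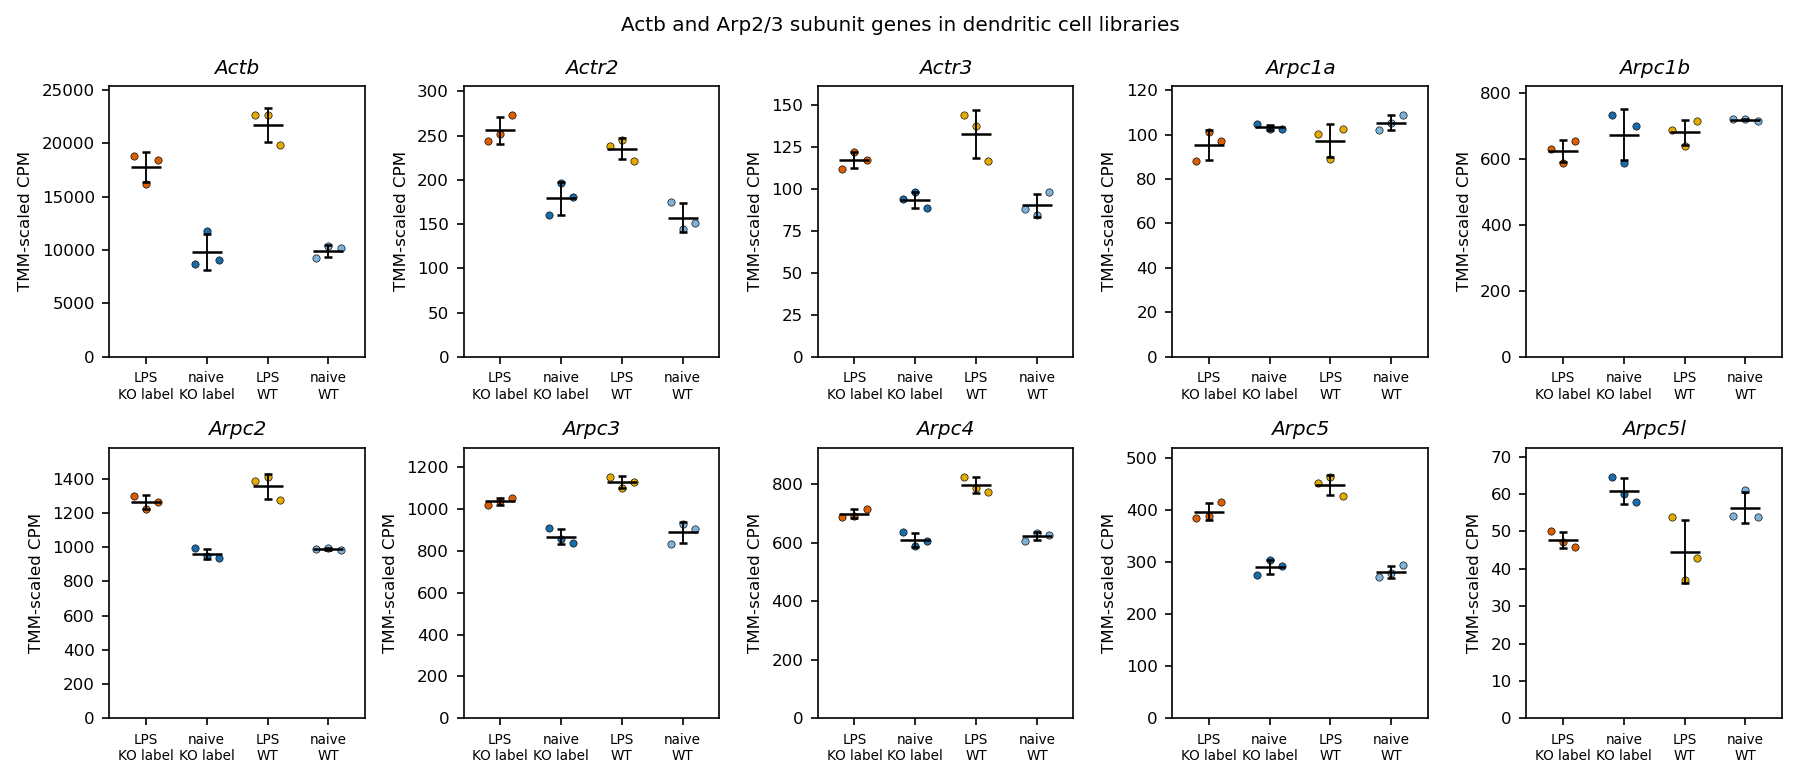
TMM-scaled CPM of each gene in the 12 dendritic cell libraries, with 1 panel per gene and axes from 0. Points are libraries, horizontal bars are means and whiskers are SDs (n = 3 per group); the LPS groups stand above the naive groups for Actb, Actr2, Actr3, Arpc2, Arpc3, Arpc4 and Arpc5.

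In cells labelled knockout the count of genes called higher fell from 7 to between 4 and 6 whichever single dendritic cell library was left out. Leaving out naive replicate 4 or LPS replicate 4 of these cells took it to 4, as did leaving out the 3 libraries labelled knockout with over 100 Gpr34 counts. The calls for Actb, Actr2, Arpc2 and Arpc5 held in each of these 3 fits, and those for Actr3, Arpc3 and Arpc4 did not, with adjusted p of 0.266 for Actr3 and 0.219 for Arpc3 without the 3 libraries. In wild-type cells the count was 7 whichever library was left out.

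Added up, the 9 subunit genes had 4535 ± 96.0 CPM in cells labelled knockout after LPS and 3836 ± 118 CPM in naive cells labelled knockout, and 4919 ± 119 CPM in LPS-treated wild-type cells and 3908 ± 61.7 CPM in naive wild-type cells (SD, n = 3 each). Actb alone was 3.92 ± 0.266 times that sum in LPS-treated cells labelled knockout, against 2.57 ± 0.505 times in naive ones, and 4.41 ± 0.248 times in LPS-treated wild-type cells, against 2.54 ± 0.111 times in naive ones. In both sets of cells every LPS ratio lay above every naive one. The rise of the sums depends on the TMM factors, whereas these ratios do not. Without composition factors the median log2 fold change over the 10 genes, Actb included, was -0.04 in cells labelled knockout and -0.004 in wild-type cells.

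Levels of different genes are compared per kilobase, with the length of all exons. In wild-type cells after LPS, Arpc2 was highest of the subunit genes, at 667.6 CPM per kb. Arpc3 was at 408.5, Arpc4 at 342.7, Arpc5 at 196.9 and Arpc1b at 133.0 CPM per kb, and Actr2, Arpc1a, Actr3 and Arpc5l followed between 45.1 and 9.92 CPM per kb. In naive wild-type cells Arpc1b, at 140.4 CPM per kb, stood above Arpc5, at 123.8. Arpc1a, at 41.1, stood above Actr2, at 30.2 CPM per kb. With the principal transcript's length Arpc3 came before Arpc2 in every group and Arpc5l came just before Actr3 in naive cells, so these neighbours have no settled order. Actb was at 8101 CPM per kb in LPS-treated wild-type cells and 3705 in naive wild-type cells.

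Dividing 1 gene of an isoform pair by the other within each library removes the scaling. The count ratio of Arpc5 to Arpc5l was 7.68 to 9.09 in LPS-treated cells labelled knockout, against 4.27 to 5.06 in naive cells labelled knockout, and 8.39 to 12.6 in LPS-treated wild-type cells, against 4.58 to 5.48 in naive wild-type cells. All 6 LPS libraries were above all 6 naive ones. The log2 ratio was 0.91 ± 0.12 higher after LPS (SE), a 1.88-fold change (two-sided exact permutation test over 6 against 6 libraries, p = 0.00216, the smallest this design allows, adjusted p = 0.00433 over 4 ratios). The share of each gene depends on the scaling. Under TMM both contributed, Arpc5 with a called rise and Arpc5l with the uncalled negative value above. Without composition factors Arpc5l was called lower, at -0.68 in cells labelled knockout and -0.75 in wild-type cells. Arpc5 was then at 0.12 in cells labelled knockout, not called, and at 0.26 in wild-type cells, called higher.

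The ratio of Actb to Actg1, the gene for gamma-actin, also differed. It was 29.7 to 40.6 in LPS-treated cells labelled knockout, against 21.3 to 28.4 in naive ones, and 37.5 to 42.2 in LPS-treated wild-type cells, against 23.0 to 23.9 in naive ones. The log2 ratio was 0.67 ± 0.094 higher after LPS, a 1.59-fold change, with no overlap of the 6 LPS and the 6 naive libraries (exact permutation test, adjusted p = 0.00433). Under TMM, Actg1 itself rose by 0.31 ± 0.076 in cells labelled knockout (adjusted p = 0.0111) and by 0.35 ± 0.076 in wild-type cells (adjusted p = 0.00435), and without composition factors it was at -0.02 and -0.06.

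The other pairs overlapped. The ratio of Arpc1b to Arpc1a was 5.81 to 7.16 in LPS-treated cells labelled knockout and 5.71 to 6.996 in naive ones, and 6.85 to 7.20 in LPS-treated wild-type cells and 6.58 to 7.05 in naive ones. Its log2 difference was 0.03 ± 0.066 (exact permutation test, adjusted p = 0.580). The log2 ratio of Actr3 to Actr2 differed by -0.11 ± 0.10 (exact permutation test, adjusted p = 0.378).

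**Figure D3:**
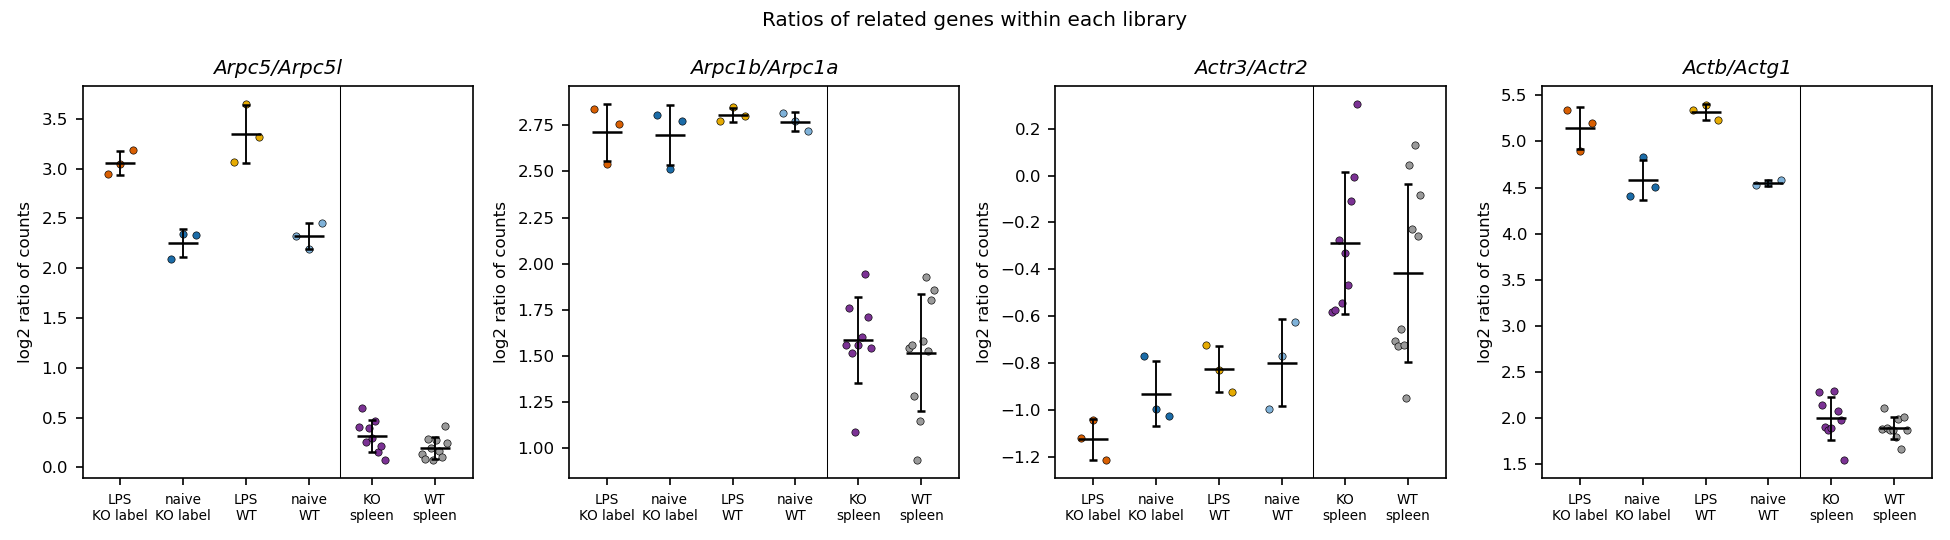
Log2 ratio of counts of 4 gene pairs within each library, with the dendritic cell groups left of the vertical line and the spleens right of it. Points are libraries, horizontal bars are means and whiskers are SDs (n = 3, 3, 3, 3, 9 and 10); the 6 LPS libraries lie above the 6 naive ones for Arpc5/Arpc5l and Actb/Actg1 and mix with them for the other pairs.

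Cells labelled knockout were set against wild-type cells to ask whether Gpr34 alters these genes. In naive cells none of the 10 was called by edgeR's quasi-likelihood test, none had an unadjusted p under 0.05, and DESeq2 and limma voom called none of the 10. Of all genes edgeR called 0%, with 1139 at an unadjusted p under 0.05, DESeq2 called 78 and limma voom 1. Actb had 8684, 11743 and 9027 CPM in naive cells labelled knockout, against 9254, 10344 and 10179 CPM in naive wild-type cells. The labelled-knockout libraries lay on both sides of the wild types, and the log2 difference was -0.02 with a 95% interval of -0.28 to 0.25. For the 9 subunit genes the differences ran from -0.09 for Arpc1b to 0.19 for Actr2, whose interval was -0.035 to 0.41. The groups overlapped for all 10 genes under TMM, where 6.59% of all genes lay apart upward and 6.48% downward. Without composition factors Arpc2 lay apart, lower in cells labelled knockout, and the others overlapped.

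After LPS none of the 10 was called by edgeR either, against 0% of all genes, with 1914 genes at an unadjusted p under 0.05. Of the 10 genes, 3 had an unadjusted p under 0.05, Actb, Arpc4 and Arpc5, with a negative difference each. Actb was at 18789, 16156 and 18392 CPM in the labelled-knockout cells after LPS, against 22632, 22637 and 19836 CPM in LPS-treated wild-type cells, a log2 difference of -0.29 ± 0.12 (adjusted p = 0.414). Arpc4 was at 687.7, 691.0 and 715.2 CPM in cells labelled knockout, against 825.6, 787.9 and 772.9 CPM in wild-type cells, a difference of -0.19 ± 0.065 (adjusted p = 0.329). Arpc5 differed by -0.17 ± 0.072 (adjusted p = 0.404). DESeq2 called Arpc4 (adjusted p = 0.0296) among its 375 genes, and limma voom called none of the 10 and 0 of all genes. Under TMM the groups of Actb, Arpc3, Arpc4 and Arpc5 did not overlap, all lower in cells labelled knockout, where 8.57% of all genes lay that way and 8.97% the other. Without composition factors Actb, Arpc3 and Arpc4 stayed apart and Arpc5 overlapped. Actr2 then lay wholly higher in cells labelled knockout, at 215.8 to 241.6 against 187.9 to 215.0 CPM. Shares of all genes were not taken on that scale. Signs of RNA composition moved with the label too. The rank correlation between a gene's GC content and its deviation from the mean of the cultures was -0.130 to -0.110 in LPS-treated cells labelled knockout and -0.0492 to 0.0985 in LPS-treated wild-type cells, without overlap. Of 16 ribosomal protein genes 1 had a positive difference, and their median was -0.12, as was that of the 10 genes. In naive cells the GC correlation was -0.126 to 0.0604 with the knockout label and 0.0697 to 0.148 in wild-type cells, also without overlap. There 3 of the 16 ribosomal protein genes had a positive difference, with a median of -0.085. The part of these measures in the differences by label was not tested. LPS-treated replicates 3 and 4 labelled knockout held 117 and 104 Gpr34 counts, within the 65 to 125 of LPS-treated wild-type cells. Without the 3 libraries with over 100 counts, which leaves 1 LPS library labelled knockout that is assumed to vary like the others, the differences were -0.23 ± 0.10 for Actb, -0.23 ± 0.080 for Arpc4 and -0.24 ± 0.091 for Arpc5, and none passed the adjusted threshold (adjusted p = 0.537, 0.459 and 0.481).

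The difference between the LPS responses of the 2 sets of cells was tested as an interaction. None of the 10 genes was called, none had an unadjusted p under 0.05, and DESeq2 and limma voom called none of them. Over all genes edgeR called 0%, with 678 at an unadjusted p under 0.05, DESeq2 called 21 and limma voom 0. Arpc5 had the smallest p of the 10, with a log2 interaction of -0.22 ± 0.10 (unadjusted p = 0.0538, adjusted p = 0.9999). The interaction of Actb was -0.27 ± 0.17, with an interval of -0.65 to 0.10, and -0.06 ± 0.13 without the 3 libraries with over 100 Gpr34 counts. That last fit leaves 1 LPS library labelled knockout.

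In spleens, Actb and Arpc4 were the genes that led to the choice of this group, and their values are given without a test. Actb was at 7413, 7303, 7189, 4889, 6647, 5077, 6636, 7026 and 6936 CPM in knockout spleens 1 to 9, against a lowest value of 4316, a median of 4630 and a highest of 5934 CPM in 10 wild-type spleens. Knockout spleens 4 and 6 lay within the wild-type range and the other 7 lay above it. The means were 6569 ± 938 CPM in knockouts (SD, n = 9) and 4796 ± 496 CPM in wild types (SD, n = 10), and the log2 difference was 0.45 ± 0.087 (SE).

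Arpc4 was at 341.4, 326.4, 427.4, 311.4, 338.8, 269.4, 364.7, 366.0 and 495.0 CPM in knockout spleens 1 to 9, against 231.4 to 301.2 CPM, with a median of 256.0, in wild types. Knockout spleen 6 lay within the wild-type range, and the other 8 lay above it. The log2 difference was 0.45 ± 0.092. Ttll3, which overlaps the end of Arpc4 on the same strand in the GENCODE annotation, differed by -0.09 ± 0.11.

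The other 8 genes differed less. Arpc1b was at 0.26 ± 0.10, with 234.1 to 367.1 CPM in knockouts and 183.9 to 301.4 CPM in wild types. Arpc1a was at 0.19 ± 0.068, Arpc3 at 0.16 ± 0.080, Arpc5 at 0.15 ± 0.093, Actr3 at 0.08 ± 0.11, Arpc5l at 0.05 ± 0.13, Arpc2 at 0.03 ± 0.063 and Actr2 at -0.06 ± 0.090. The groups overlapped for all 10 genes. The median was 0.15 over the 10 genes and 0.01 over all genes, and 0.04 and -0.10 without composition factors, where Actr3, Arpc2 and Arpc5l turned negative too. Of 20371 genes tested in spleens, 0.0982% were called higher and 0.0785% lower, and 0.0491% lay wholly above and 0.0245% wholly below the wild types.

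Spleen 9 was the highest knockout for 7 of the 10 genes, and spleens 4 and 6 were the lowest for 6 and 4. Actr2 went otherwise, with its highest knockout value in spleen 6, at 134.3 CPM, and 100.2 CPM in spleen 9. The 9 subunit genes summed to 3118 CPM in spleen 9, against 2098 to 2662 CPM in the other knockouts and 2115 to 2453 CPM in wild types. Without knockout spleen 9 the log2 difference of Arpc4 was 0.38, and without spleens 4, 6 and 9 those of Actb and Arpc4 were 0.56 and 0.46. Without composition factors both were at 0.34.

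**Figure D4:**
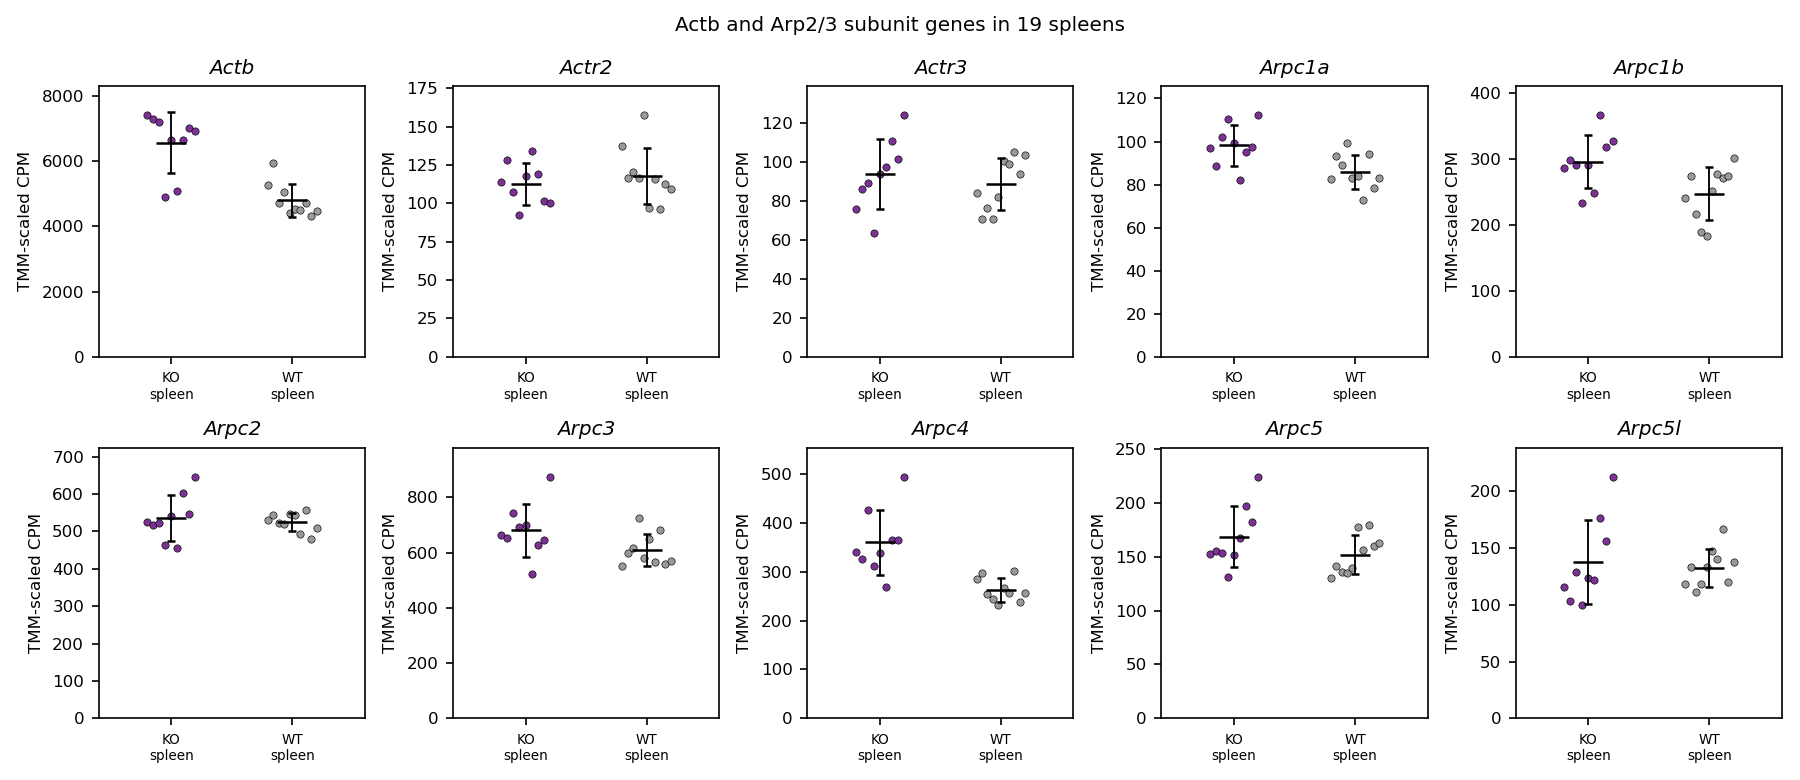
TMM-scaled CPM of each gene in 9 knockout and 10 wild-type spleens, with 1 panel per gene and axes from 0. Points are spleens in replicate order, horizontal bars are means and whiskers are SDs; 7 of 9 knockout spleens are above every wild type for Actb and 8 of 9 for Arpc4, and the other panels overlap widely.

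Several other measures moved with the spleen groups. The share of counts from haemoglobin genes was 4.16 to 23.7% in knockouts, highest in spleen 4, and 3.26 to 11.8% in wild types. All 9 erythroid markers with an identifier, of 12 listed, all 12 exocrine pancreas markers and all 16 ribosomal protein genes had positive log2 differences, and all 6 plasma cell markers had negative ones. The 12 pancreas markers summed to 16.2 to 8303 CPM in knockouts and 13.9 to 2681 CPM in wild types, and the 9 erythroid markers to 42130 to 287000 and 29270 to 115000 CPM; no marker of either list was at 0. The rank correlation between a gene's GC content and its deviation from the spleen mean was -0.315 to 0.338 in knockouts and -0.431 to 0.188 in wild types, and knockout spleen 6 was the only knockout below 0. Of the wild types, only spleens 2, 6 and 8 lay above 0. With each library's trend on GC content and length removed, Actb and Arpc4 differed by 0.39 and 0.35, and without haemoglobin genes both remained at 0.45. The part of the marker lists and of RNA composition in the result was not tested.

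The isoform ratios set spleens and dendritic cells apart, as levels side by side without a test since the tissues were prepared and scaled separately. The count ratio of Arpc5 to Arpc5l was 1.05 to 1.51 in knockout spleens and 1.05 to 1.33 in wild-type spleens, below the 4.27 to 12.6 of the cultures. The ratio of Arpc1b to Arpc1a was 2.12 to 3.85 in knockout and 1.91 to 3.80 in wild-type spleens, and that of Actb to Actg1 was 2.91 to 4.91 and 3.16 to 4.30. Actg1 was at 1033 to 2387 CPM in knockout and 1069 to 1491 CPM in wild-type spleens. The ratio of Actr3 to Actr2 was 0.669 to 1.24 in knockout spleens, against 0.431 to 0.648 in the cultures. In wild-type spleens it was 0.519 to 1.09, which overlaps the cultures. The Arpc5l end of the first ratio has a doubt, since the gene overlaps Rpl35 on the other strand and Wdr38 on the same strand. Rpl35 had 48.0 to 158.5 CPM in knockout spleens and 47.1 to 125.4 CPM in wild-type spleens, against 3.86 to 7.87 CPM in the cultures, and the use of strand in the counting is not given. Gapdh and Rps6, given above, had far lower CPM in the cultures than in spleens. The part of such differences of single genes in the tissue gap of these ratios was not tested. No ratio separated knockout from wild-type spleens.

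Other genes of the actin system were taken from 8 lists of 100 genes, of which the list of actins also holds Actb. No gene of any list was called by edgeR between cells labelled knockout and wild-type cells, naive or after LPS, or in the interaction. After LPS, counts without composition factors are given beside those under TMM. They stand against all genes, of which 15.3% were called higher and 13.4% lower in cells labelled knockout, and 18.1% and 15.8% in wild-type cells, under TMM. Without the factors these shares were 8.49% and 29.4% in cells labelled knockout, and 9.43% and 36.1% in wild-type cells.

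The list of Arp2/3 activators held genes of the WASP, WAVE and WASH families and related genes such as Cttn, Hcls1 and Wipf1. Of 24 tested genes, 7 were called higher and 2 lower in cells labelled knockout, and 8 and 2 in wild-type cells. On the scale without these factors, 2 were higher and 6 lower in cells labelled knockout, and 3 and 6 in wild-type cells. Hcls1, a haematopoietic cortactin relative that binds Arp2/3, rose by 1.27 ± 0.10 in cells labelled knockout (adjusted p = 8.94e-06) and 1.56 ± 0.10 in wild-type cells (adjusted p = 1.64e-06). Whamm, an activator on internal membranes, rose by 0.996 ± 0.18 in cells labelled knockout and 1.04 ± 0.18 in wild-type cells. Cyfip1, a subunit of the WAVE complex that binds Rac, rose by 0.57 ± 0.12 and 0.65 ± 0.12.

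Inhibitors and branch-removing factors were called higher for 6 and lower for 1 of 12 in cells labelled knockout, and for 4 and 4 in wild-type cells. Without composition factors they were 1 and 5 in cells labelled knockout, and 2 and 7 in wild-type cells. Cfl1, the gene for the filament-severing protein cofilin, rose by 0.65 ± 0.066 in cells labelled knockout and 0.74 ± 0.066 in wild-type cells (adjusted p = 5.10e-05 and 1.52e-05), and its relative Dstn rose by 0.58 ± 0.11 and 0.80 ± 0.11. Coro1a, the leukocyte coronin, fell by 0.48 ± 0.12 in cells labelled knockout and by 0.39 ± 0.12 in wild-type cells on the log2 scale (adjusted p = 0.0129 and 0.0295). Coro2a, another coronin, was at -0.23 ± 0.084 in cells labelled knockout, which was not called (adjusted p = 0.0592), and fell by 0.42 ± 0.084 in wild-type cells (adjusted p = 0.00288).

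Monomer-binding and capping genes were called higher for 4 and lower for 1 of 14 in cells labelled knockout and for 6 and 1 in wild-type cells, and for 0 and 2 in both without composition factors. Gsn, for the severing protein gelsolin, fell by 1.03 ± 0.11 in cells labelled knockout and by 0.75 ± 0.11 in wild-type cells on the log2 scale. Pfn1, for the monomer-binding profilin, rose by 0.30 ± 0.070 and 0.43 ± 0.070. Formins and elongation factors were called higher for 4 and lower for 1 of 12 in either set of cells, with Vasp at 0.68 ± 0.081 in cells labelled knockout and 0.77 ± 0.081 in wild-type cells, and were 3 higher and 6 lower in cells labelled knockout, and 3 and 5 in wild-type cells, without composition factors.

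Crosslinkers and membrane links were called higher for 9 and lower for 1 of 15 in cells labelled knockout and for 9 and 2 in wild-type cells, or 5 and 5, and 7 and 5, without composition factors. With RLE factors, another scaling, 7 were higher and 1 lower in cells labelled knockout, and 9 and 2 in wild-type cells. Lcp1, for the leukocyte bundling protein L-plastin, rose by 1.06 ± 0.12 in cells labelled knockout and 1.39 ± 0.12 in wild-type cells, and Msn, for moesin, by 0.95 ± 0.094 and 1.17 ± 0.094. Of 6 actins, Actb and Actg1 were called higher and none lower, and without composition factors only Actb was higher, with 2 lower in cells labelled knockout and 0 in wild-type cells. Of 6 genes for serum response factor, its cofactors and related targets, 2 were higher and 1 lower in either set of cells, or 1 and 1 in cells labelled knockout and 2 and 1 in wild-type cells without these factors. Tagln2, for an actin-binding transgelin, rose by 1.58 ± 0.18 in cells labelled knockout and 2.03 ± 0.18 in wild-type cells. Of 7 other actin-related proteins, which belong to dynactin or chromatin complexes, 2 were higher and 0 lower in cells labelled knockout, and 2 and 1 in wild-type cells, or 0 and 1, and 0 and 3, without these factors.

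**Figure D5:**
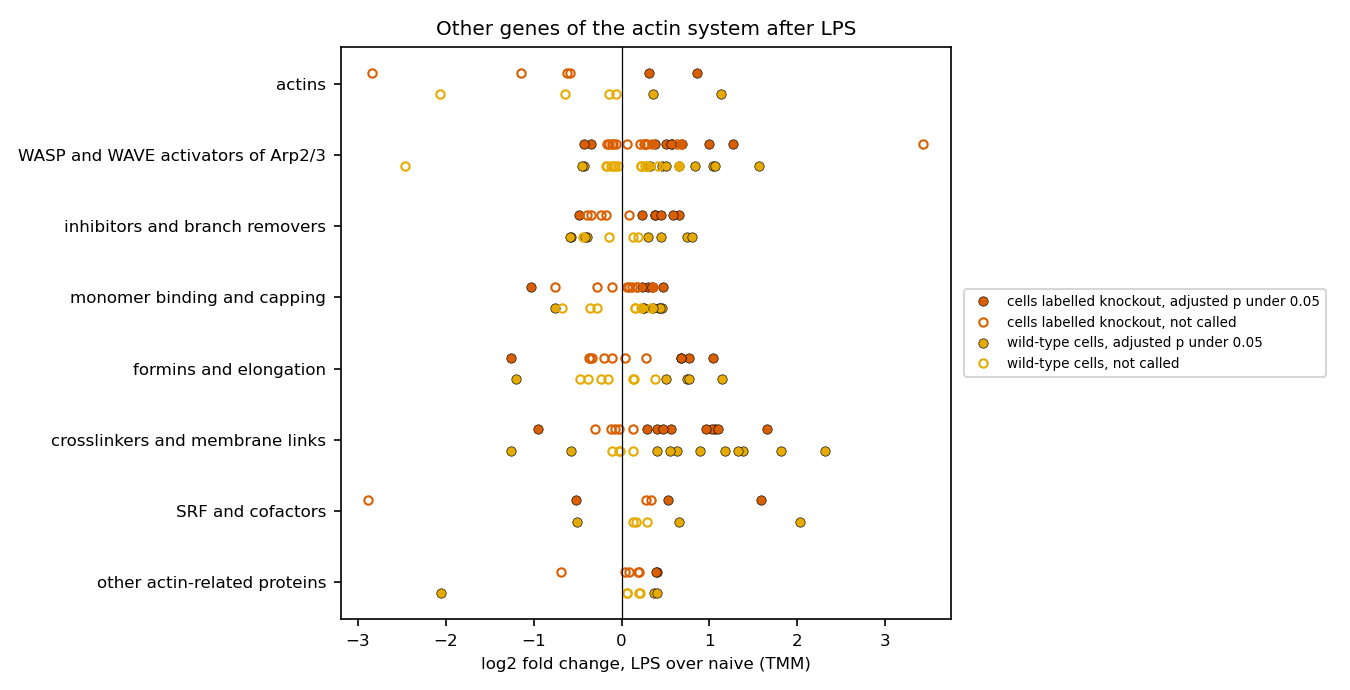
Log2 fold change, LPS over naive, of each tested gene in 8 lists of the actin system, under TMM. Filled points passed edgeR's test at an adjusted p under 0.05 and open points did not, with cells labelled knockout above wild-type cells in each row; the crosslinkers hold the most genes called higher, 9 of 15 in both.

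The genes with the most similar profile were found by the root mean square difference of centred log2(CPM + 2), among genes with a mean of at least 10 CPM. Over the 12 dendritic cell libraries, Arpc4 was closest to Capzb, Gnb2 and Gnas among genes outside the group, with differences of 0.0423 to 0.0479. Arpc3 was closer than any of 7437 genes compared, at 0.0403, and Arpc2 was in place 78. For Actb the nearest member of the group was Arpc5, in place 456, at 0.244. Over the 19 spleens, Actb was closest to Trex1, Tapbp and Cnn2, at 0.122 to 0.127, and Arpc4 to Tapbp, Vim and Cotl1, at 0.0907 to 0.110. Arpc4 stood in place 38 of 8752 for Actb, and Actb in place 91 for Arpc4. The libraries of a tissue share their group structure, so these are descriptions.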

How the data were processed

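RNA sequencing counts of 31 libraries were used. The deposited values are whole-number counts per Ensembl gene; per the submitters' processing notes, TopHat 1.3.3, Bowtie, SAMtools, bedtools, DESeq and build mm9 were named, without roles. Annotation and strand use were not given in the sources used here. Members that overlap another gene are therefore uncertain: Arpc1a with Kpna7, Arpc1b with Pdap1, Arpc3 with Gm42829, Arpc4 with Ttll3 and Arpc5l with Rpl35 and Wdr38. Genes without a line in a library were set to 0.

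edgeR 4.0.16 was fitted in R 4.3.3 separately for dendritic cells (16965 genes after filterByExpr) and spleens (20371), with TMM factors, quasi-likelihood tests and Benjamini-Hochberg adjustment over all genes. Fold changes are LPS over naive and knockout over wild type. Log2 ratios within a library had 0.5 counts added and were tested by exact permutation (scipy 1.17.1). DESeq2 1.42.0, limma voom 3.58.1, other scalings and left-out libraries were alternatives. Scripts were tested on simulated data. The genes and lists were chosen with earlier results of these counts known. All 10 genes were named in every comparison, and up to 3 called genes with the smallest p per list and comparison. A further list and some profile neighbours of Actb are not reported here.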

Additional observations from a re-analysis of the deposited data

How the results depend on the processing

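The alternatives were DESeq2, limma voom, other scalings, no filter, only the libraries compared, the replicate block, removal of GC and length trends and left-out libraries. Without composition factors, 1 gene was called higher and 3 lower after LPS in cells labelled knockout, and 2 higher and 3 lower in wild-type cells. Actr3, Arpc3 and Arpc4 then reversed to -0.0021, -0.072 and -0.13 in cells labelled knockout, and Arpc3 and Arpc4 to -0.065 and -0.056 in wild-type cells. In cells labelled knockout 4 genes were higher with only the libraries compared. Arpc5l made 1 gene lower after LPS in DESeq2 in both sets of cells, in voom in wild-type cells, and with only the libraries compared in cells labelled knockout. DESeq2 called 1 gene, Arpc4, lower in LPS-treated cells labelled knockout. Leaving out 1 library gave 4 to 6 higher and 0 to 1 lower in cells labelled knockout, and 7 higher throughout and 0 to 1 lower in wild-type cells. The log2 difference of Arpc1b to Arpc1a ranged from -0.018 to 0.070, negative without naive labelled-knockout replicate 3. The cause of these changes was not tested. The spleen values of Actb were 0.34 to 0.56 and of Arpc4 0.34 to 0.50 over 28 alternatives.

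With the replicate number as a block, 5 genes were higher after LPS in cells labelled knockout, where Actr3 and Arpc4 no longer passed (adjusted p = 0.0676 and 0.0917), and 7 in wild-type cells. The block gave 0.44 for Actb and 0.43 for Arpc4 in spleens. It is not settled whether the same number marks paired samples. Same-numbered libraries had correlations of -0.183 to 0.217 in the cultures, with a median of 0.026, against a median of -0.0021 for other pairs. In spleens they were -0.287 to 0.536, with a median of 0.208, against a median of -0.015 for other pairs. Of 12 culture and 18 spleen libraries, 4 and 8 correlated best with a same-numbered one. The ratios had no block. The lowest count of any of the 10 genes was 1421, and the number of libraries sets the width of the intervals.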

Other observations

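Actr3b, a second gene for Arp3 that was not among the 10 and was looked at after its values were seen, was far below Actr3. It had 0 to 0.724 CPM in LPS-treated cells labelled knockout, against 0.886 to 2.49 CPM in naive cells labelled knockout, and 0.0896 to 1.32 CPM in LPS-treated wild-type cells, against 2.39 to 3.85 CPM in naive wild-type cells. The groups did not overlap in either set of cells, and neither difference passed edgeR's test (adjusted p = 0.103 in cells labelled knockout and 0.188 in wild-type cells). In spleens it had 1.23 to 2.40 CPM in knockouts and 0.960 to 2.44 CPM in wild types.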
